A study of Mus musculus with 10 samples.

Results

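The osteogenic genes described here are *Runx2*, *Sp7*, *Spp1*, *Ibsp*, *Sparc*, *Mmp13* and *Wif1*, which were analysed in *Lepr*-lineage cells. They were chosen by name as genes of bone formation that stand after *Gm5763* in the deposited gene table, and are 7 of the 21325 genes in those rows and of 50508 in the whole table. The series holds single cells sorted into 96-well plates from the hind limbs of C57BL/6 mice, with 2 plates of *Lepr-TdT* and 8 plates of *Grem1-TdT* cells. *Lepr-TdT* mice carry a constitutive *Lepr-cre* and a TdTomato reporter, so a cell is marked if it or an ancestor used the *Lepr* promoter. Whole *Lepr-TdT* bones, age-paired to the *Grem1-TdT* mice, were crushed and digested with collagenase type I, and live CD45-Ter119-CD31- TdTomato+ cells were sorted. *Grem1-TdT* mice, which received tamoxifen chow at 5 to 6 weeks of age for 2 weeks, were not analysed here for these genes. How many animals gave the cells of each plate is not stated, so the plates may or may not be separate animals.

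These genes belong to the programme by which mesenchymal cells make bone. RUNX2 and osterix, the product of *Sp7*, are the transcription factors without which osteoblasts do not form, and they act on genes of the mineralising matrix. *Ibsp* (bone sialoprotein) and *Spp1* (osteopontin) encode acidic phosphoproteins of that matrix, while *Sparc* (osteonectin) encodes a protein that binds collagen and mineral. *Mmp13* encodes a collagenase of hypertrophic chondrocytes and osteoblasts, and *Wif1* a secreted antagonist of Wnt ligands. In bone marrow, *Lepr*-lineage stromal cells are known for *Cxcl12*, the chemokine that retains haematopoietic stem cells, and are a source of osteoblasts in adult mice.

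In GRCm38, *Ibsp* (chr5:104299171-104311469) and *Spp1* (chr5:104435118-104441050) lie on the plus strand of 1 gene cluster, with *Dspp*, *Dmp1* and *Mepe*. *Runx2* (chr17:44495987-44814797, minus strand), *Sp7* (chr15:102356606-102367182, minus strand), *Sparc* (chr11:55394500-55423183, minus strand), *Mmp13* (chr9:7272514-7283331, plus strand) and *Wif1* (chr10:121033960-121100650, plus strand) each lie on another chromosome. *Spp1* shares 309 exonic bases with *Gm42793* on the same strand, and *Runx2* shares 519 with the antisense gene *Runx2os1*, so some counts could belong to either gene of a pair.

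The sequences just before the transcription start were examined because a member, RUNX2, is itself a DNA-binding factor. RefSeq windows of 250 bases in GRCm38.p6 were given for 6 of the 7 genes, all but *Sp7*. The RUNX motif AACCACA, or TGTGGTT on the other strand, was found in 1 window each of *Spp1*, *Mmp13* and *Runx2*, and in no window of *Ibsp*, *Sparc* or *Wif1*. Of 32850 such windows, 4.40% held the motif on either strand. The *Spp1* window (chr5:104434861-104435110, plus strand) holds it with its first base 129 bases before the start, and the *Mmp13* window (chr9:7272264-7272513, plus strand) 119 bases before it. Both are shown 5′ to 3′ with the motif in capitals. The *Runx2* window reaches into transcripts of another annotation and is not shown. The windows of *Ibsp*, *Sparc* and *Wif1* and the other *Spp1* window do so too, so they do not lie before every annotated start.
*Spp1*: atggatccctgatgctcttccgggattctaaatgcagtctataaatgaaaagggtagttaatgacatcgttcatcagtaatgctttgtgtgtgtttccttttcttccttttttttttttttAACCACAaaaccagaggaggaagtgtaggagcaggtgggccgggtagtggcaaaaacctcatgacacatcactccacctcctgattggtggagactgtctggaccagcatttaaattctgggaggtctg
*Mmp13*: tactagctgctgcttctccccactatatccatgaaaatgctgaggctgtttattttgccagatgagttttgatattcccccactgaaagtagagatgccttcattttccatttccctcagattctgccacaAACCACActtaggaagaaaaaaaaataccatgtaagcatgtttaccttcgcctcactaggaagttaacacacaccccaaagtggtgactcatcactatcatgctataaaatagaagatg
A match is a run of letters in a window and not a measured binding site.

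Of 76 and 86 wells on plates 1 and 2, 74 and 86 held at least 350 genes with a unique molecular identifier (UMI, which lets PCR copies of 1 molecule be counted once), and these cells were kept. They held 158749 and 145484 UMIs, with medians of 1390 and 1130 per cell and a range from 533 to 21187. All 10 fixed markers of marrow stromal cells had UMIs on both plates and together reached 14970 and 22060 CPM (UMIs of a gene scaled to a library of 1000000 UMIs). Of 10 fixed osteoblast and osteocyte markers, 9 and 7 had UMIs, at 6702 and 1471 CPM, and *Mepe* was at 0 on both plates. The plates used 70 well barcodes in common. Although CD45+ cells were gated out, *S100a8*, a neutrophil gene, had a UMI in every kept cell, and *S100a8* and *S100a9* took at least 5% of the UMIs in 10 wells of plate 1 and 2 of plate 2. *Cytl1*, a cartilage gene, had UMIs in 60 kept wells of plate 1, of which 1 well held 151 of 360, and in 0 wells of plate 2. *Elane*, another neutrophil gene, had 235 UMIs in 1 well of plate 2 and 113 spread over 56 of the other 85 wells. A UMI of a gene in a well was therefore not read as expression by that cell alone, and the level of each gene is given beside its spread over wells.

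*Runx2* and *Sp7*, the transcription factors, were at the edge of detection. *Runx2* had 7 UMIs in 7 of 74 cells of plate 1 and 5 UMIs in 5 of 86 cells of plate 2, never more than 1 in a cell. This came to 44.1 CPM (95% exact Poisson interval 17.7 to 90.9) and 34.4 CPM (11.2 to 80.2), or 39.2 ± 6.88 CPM (SD, n = 2 plates). Such intervals cover counting error only. *Sp7* had 3 UMIs in 3 cells of plate 1, which gives 18.9 CPM (3.90 to 55.2), and 0 UMIs in 86 cells of plate 2. The same kind of interval on plate 2 reached 25.4 CPM, and a count of 0 read as up to 3 counts allows 20.6 CPM. At this depth the plates could not be told apart for either gene. No cell held both. Summed over the cells with a *Runx2* UMI, *Ibsp* was at 2127 CPM on plate 1 and 2806 CPM on plate 2, against 6171 and 8904 CPM in the cells without one. A single deep well held 49.7% and 71.6% of the UMIs of these sums, and without it *Ibsp* was at 3075 and 6432 CPM. Of the 3 cells with *Sp7*, 1 was a well with 170 UMIs of *Col1a1*, the main collagen chain of bone, and 81 of *Bglap* (osteocalcin). The other two held 1 UMI of *Col1a1* each, and 4 and 0 of *Bglap*.

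Other regulators of osteoblasts were also sparse, although some had more UMIs than *Runx2* and *Sp7*. Of 18 listed, 12 had UMIs on plate 1 and 9 on plate 2, and the whole list summed to 661 and 440 CPM. The most abundant were *Snai2* with 31 and 16 UMIs, *Atf4* with 22 and 16, *Pth1r*, the parathyroid hormone receptor, with 16 and 17, and *Dlx5* with 6 and 4. *Cbfb*, which encodes the partner subunit of RUNX2, and *Sost* and *Fgf23*, genes of osteocytes, were at 0 on both plates.

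*Ibsp* was present throughout. It had 896 UMIs on plate 1 and 1115 on plate 2, which gives 5644 CPM (5281 to 6026) and 7664 CPM (7221 to 8127), or 6654 ± 1428 CPM (SD, n = 2 plates). The lowest, median and highest wells held 1, 8 and 46 UMIs on plate 1 and 0, 9 and 50 on plate 2. All 74 cells of plate 1 and 85 of 86 cells of plate 2 had at least 1, and the cell without one was among the shallow ones, with 627 UMIs, 7 of *Cxcl12* and 2 of *Adipoq*. No single well carried the gene: the richest held 5.13% and 4.48% of its UMIs on the plates, and its share of the UMIs of a well ran from 0.0838% to 2.97% on plate 1 and from 0 to 3.43% on plate 2. A high well, set at 10 UMIs or more, was found 31 times on plate 1 and 42 times on plate 2, and the cells below it were still at 3510 and 5586 CPM. Thinning to 673 UMIs left out 7 and 9 shallower cells. Of the 67 and 77 thinned cells, 94.0% and 97.4% still had a UMI, with medians of 5 and 6. Wells rich in *S100a8* and *S100a9* also had *Ibsp* in 10 of 10 and 2 of 2 cases, so the share of cells with a UMI did not set them apart. Their level was lower, at 2768 CPM (2297 to 3308) against 6737 CPM (6271 to 7228) in the other wells of plate 1. On plate 2 it was 3280 CPM (2244 to 4631) against 7979 CPM (7511 to 8469). Without the deepest of these wells, *Ibsp* was at 3159 CPM (2540 to 3883) and 4847 CPM (3038 to 7338), the latter from 1 well. These wells were also deeper, with medians of 2908 and 4878 UMIs against 1222 and 1120. The intervals leave out the spread between wells, over which *Ibsp* UMIs had a variance of 8.39 and 7.73 times the mean.

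*Spp1* also had a base, broader on plate 1 than on plate 2, and a few wells of plate 1 far above it. It had 813 UMIs on plate 1 and 239 on plate 2, which gives 5121 CPM (4775 to 5486) and 1643 CPM (1441 to 1865), or 3382 ± 2460 CPM (SD, n = 2 plates). The lowest, median and highest wells held 0, 5 and 247 UMIs on plate 1 and 0, 2 and 18 on plate 2. A UMI was found in 97.3% and 76.7% of cells, fewer than for *Ibsp*. The wells of the plates overlapped over most of their range, but 5 wells of plate 1, with 247, 116, 67, 25 and 21 UMIs, stood above every well of plate 2. The highest share of a well's UMIs was 10.7% on plate 1 and 2.63% on plate 2. By share, the wells with 247, 116 and 67 UMIs, at 9.39%, 10.7% and 6.10%, were above every well of plate 2. Those with 25 and 21 were not, at 0.146% and 1.86%, the first below the median of its plate, 0.257%. Together the 5 wells held 58.6% of the *Spp1* UMIs of that plate. Without the 10 wells that held at least 20 UMIs of *Spp1* or *Sparc*, plate 1 was at 2515 CPM (2242 to 2812), still above plate 2. Whether *Spp1* UMIs of the high wells reached other wells was not tested. At 10 UMIs or more there were 10 high wells on plate 1 and 5 on plate 2, and the wells below were at 2767 and 1350 CPM, with a UMI in 96.9% of them (95% Clopper-Pearson interval 89.2 to 99.6) and in 75.3% (64.5 to 84.2). With 1 group and 2 plates no test between plates was made. After thinning to 673 UMIs, 86.6% of the 67 thinned cells on plate 1 and 58.4% of the 77 on plate 2 had a UMI. None of the barcodes of these 5 wells held 20 *Spp1* UMIs on plate 2, where the highest had 9.

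*Sparc*, too, had a broad base and a few high wells on plate 1. It had 541 UMIs on plate 1 and 325 on plate 2, which gives 3408 CPM (3127 to 3708) and 2234 CPM (1998 to 2490), or 2821 ± 830.1 CPM (SD, n = 2 plates). The lowest, median and highest wells held 0, 4 and 60 UMIs on plate 1 and 0, 3 and 11 on plate 2. Again 5 wells of plate 1, with 60, 56, 53, 43 and 27 UMIs, stood above the rest and held 44.2% of the plate's *Sparc* UMIs. The highest share of a well's UMIs was 3.29% on plate 1 and 1.32% on plate 2, and the well with 27 UMIs was at 1.12%, below the latter. Without the 10 high wells, plate 1 came to 2286 CPM (2026 to 2570), within the interval of plate 2. At 10 UMIs or more there were 11 and 4 high wells, and the wells below were at 2051 and 2386 CPM, with a UMI in 95.2% and 91.5% of them. The wells richest in *Sparc* and in *Spp1* were different cells: no well held 20 UMIs of both.

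**Figure D1:**
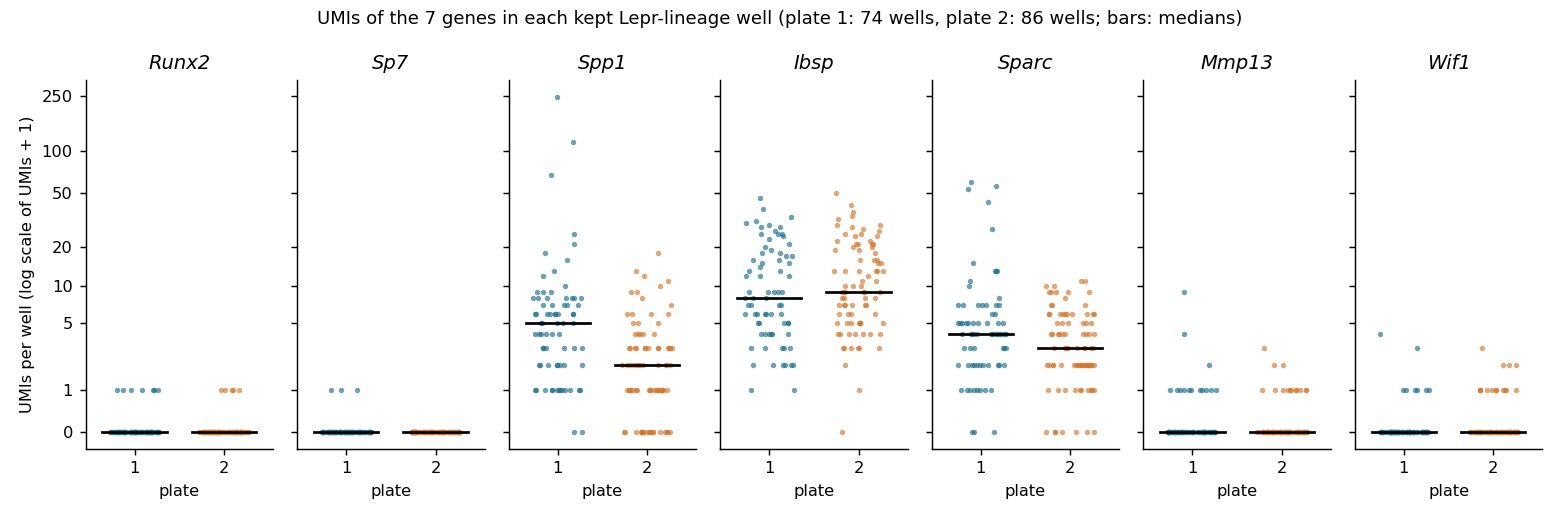
UMIs of each gene in each kept well (points; log scale of UMIs + 1) of plates 1 and 2, with a bar at the median. *Ibsp* has medians of 8 and 9 and reaches 46 and 50 without a few wells standing apart. *Spp1* and *Sparc* each have 5 wells of plate 1 with at least 20 UMIs, and *Runx2* and *Sp7* never exceed 1.

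*Mmp13* and *Wif1* were low and scattered. *Mmp13* had 26 UMIs in 14 cells of plate 1 and 18 UMIs in 14 cells of plate 2, which gives 164 CPM (107 to 240.0) and 124 CPM (73.3 to 196). Most of these cells had 1 UMI, while 1 well of plate 1 held 9 and the richest of plate 2 held 3. *Wif1* had 13 UMIs in 8 cells of plate 1 and 20 UMIs in 15 cells of plate 2, which gives 81.9 CPM (43.6 to 140.0) and 137 CPM (84.0 to 212), with 4 and 3 UMIs at most. The intervals of the plates overlapped for both genes, and 2 and 4 cells held both.

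Summed over the cells with a *Mmp13* UMI, *Spp1* was at 5627 and 2553 CPM on plates 1 and 2, against 4974 and 1439 CPM in the cells without one, while *Ibsp* was at 5235 against 5763 CPM on plate 1 and at 9086 against 7345 CPM on plate 2. The *Spp1* value of plate 1 rested on the well with 116 *Spp1* UMIs, and without it was 2454 CPM. The cells without *Mmp13* kept their own rich wells, with 247 and 67 *Spp1* UMIs. The sides were thus not trimmed alike, and no direction is read from this value. *Ibsp* on plate 1 was at 6879 CPM without the deepest of the cells with *Mmp13*. The cells without *Mmp13* kept their deep wells, of 17146 and 15219 UMIs, so no direction is read here either. In the cells with a *Wif1* UMI, *Ibsp* was at 3060 against 6248 CPM on plate 1 and at 5545 against 8766 CPM on plate 2, and *Cxcl12* at 4091 against 9209 CPM and at 7575 against 13260 CPM. On plate 2 a well of 21187 UMIs held 42.6% of that sum. Without it, the cells with *Wif1* were at 8641 CPM of *Ibsp* and 12030 CPM of *Cxcl12*. Without the deepest well of plate 1 they were at 4042 and 3537 CPM. The single kept cell with no *Cxcl12* UMI, on plate 2, was also the plate's richest in *Wif1*, with 3 of its 754 UMIs, 7 of *Ibsp*, 3 of *Alpl* and 0 of *Adipoq*.

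Of 12 listed matrix proteases and inhibitors, 9 had UMIs on each plate. *Timp2*, a metalloproteinase inhibitor, led with 41 and 48 UMIs. *Timp1* had 23 and 13, *Mmp14* 13 and 18, and *Mmp9* had 21 UMIs on plate 1 and 0 on plate 2. Of 22 Wnt antagonists, receptors and targets, 13 and 12 had UMIs. *Sfrp4*, another secreted Wnt antagonist, was in 36 of 74 and 67 of 86 cells with 89 and 186 UMIs. *Lrp4*, a co-receptor, had 80 and 131 UMIs, of which 1 well on each plate held 62 and 116. *Axin2* and *Lef1*, which are widely used as readouts of Wnt signalling, were at 0 on both plates, as were *Dkk1* and *Notum*. In the same list, *Tcf7* had 3 and 1 UMIs and *Nkd2* had 0 and 3. A count of 0 read as up to 3 counts allows 18.9 and 20.6 CPM, so Wnt signalling is not judged from these zeros.

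The 10 high wells of plate 1 differed in what they held beside *Spp1* or *Sparc*, and each is a single well, not checked for doublets. The well with 247 *Spp1* UMIs, 9.39% of its 2630, held 6 of *Dmp1*, an osteocyte matrix gene, 41 of *Hspa1a* and 22 of *Hspb1*, both heat shock genes, and 0 of *Col1a1*. In that well, 5 genes had at least 10 UMIs and at most 2 in any other kept well of the plate, against a median of 0 such genes per well. The well with 116 *Spp1* UMIs, 10.7% of its 1080, was the richest in *Mmp13* with 9 and held 28 of *Ibsp*, 1 of *Col1a1* and 1 of *Cxcl12*. It had the lowest *Cxcl12* share of the plate, at 0.0926%. The wells with 67 and 21 *Spp1* UMIs held 2 and 1 of *Ibsp*. The well with 25 was the deepest of the plate, at 17146 UMIs, and held 473 of *S100a8*.

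Among the *Sparc*-high wells, those with 56 and 53 UMIs carried the most type I collagen, with 170 and 150 UMIs of *Col1a1* and 142 and 120 of *Col1a2*. The first also held 81 UMIs of *Bglap*, 79 of *Bglap3* and 12 of *Ibsp*, and the second 1, 3 and 5. *Bglap* is a gene of mature osteoblasts, and these wells differed in it more than in collagen. The well with 60 *Sparc* UMIs held 60 of *Prg4* (lubricin), 151 of *Cytl1* and 69 of *Dcn*, genes of cartilage surface and fibrous tissue. The well with 43 held 22 of *Col10a1*, the collagen of hypertrophic chondrocytes, 8 of *Col2a1*, 4 of *Acan* and 4 of *Wif1*, the most *Wif1* in any kept well. It held 0 of *Mmp13*, and 76 of *S100a8* against a plate median of 28.5. The well with 27 held 28 of *Dcn*, 14 of *Col1a1*, 13 of *Col1a2*, 13 of *Cilp* and 9 of *Comp*. Osteoclast genes were low in all 10: *Acp5* had 0 UMIs in each, *Ctsk* had 0, and *Mmp9* had 6 in the deepest well and 0 in the others.

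**Figure D2:**
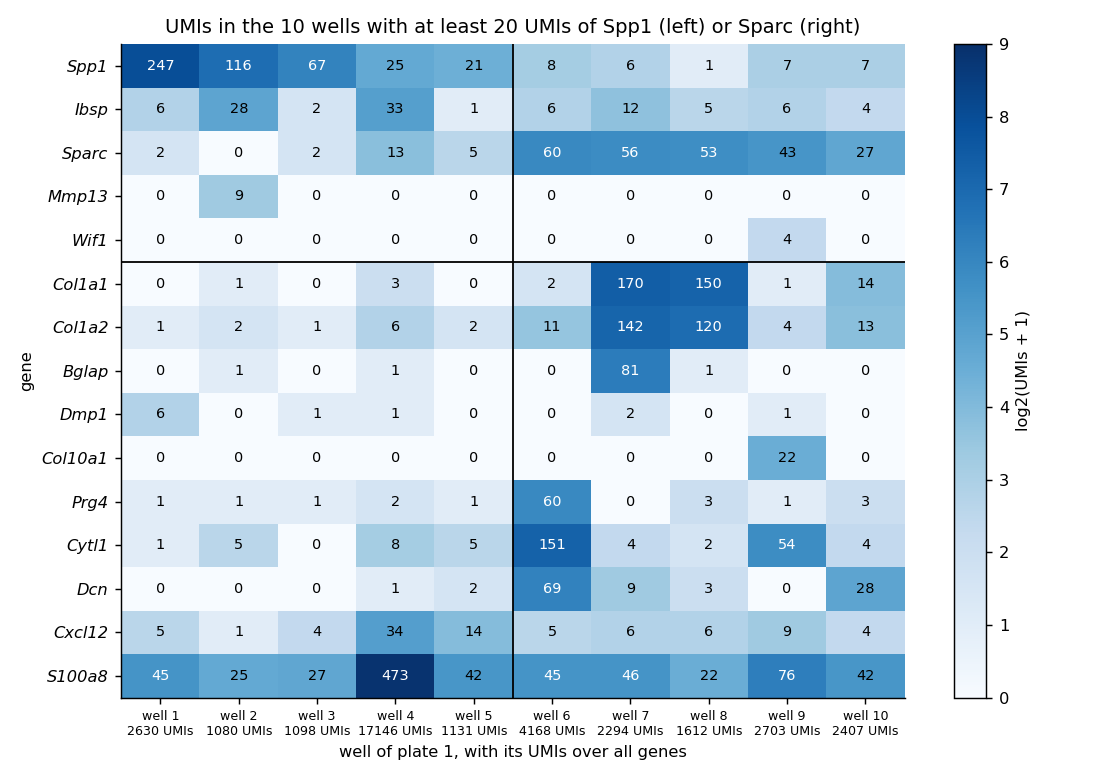
UMIs (numbers; shade, log2(UMIs + 1)) of the members (above the line) and other genes in the 10 wells of plate 1 with at least 20 UMIs of *Spp1* (left) or *Sparc* (right). The *Spp1*-high wells hold at most 3 UMIs of *Col1a1*. *Sparc* goes with 170 and 150 UMIs of *Col1a1* in 2 wells and 14 in another, with *Prg4* in 1 and with *Col10a1* in 1.

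Across all cells the matrix genes were at most weakly correlated with each other. Spearman's rho over the cells of plates 1 and 2 was -0.01 and 0.07 for *Spp1* and *Ibsp*, 0.09 and 0.14 for *Spp1* and *Sparc*, and -0.02 and 0.11 for *Ibsp* and *Sparc*. These and the following correlations describe 74 and 86 cells that share a plate, a library and sequencing depth, and are weak in sparse counts. By mean Pearson correlation over both plates, on log2(CPM + 100) and among 1927 genes, *Ibsp* was most like *Gpx3* (0.41 and 0.34), *Tmem176b* (0.39 and 0.32) and *Serpine2* (0.38 and 0.31). *Spp1* was most like *Cd63* (0.31 and 0.25), *Ssr2* (0.21 and 0.29) and *Psmb2* (0.15 and 0.30). *Sparc* was most like *Igfbp7* (0.11 and 0.49), *mt-Rnr2* (0.38 and 0.17) and *Col1a2* (0.46 and 0.06), each high on 1 plate only. *Mmp13* was most like *Ndufb9*, *Gm29325* and *Pde1c*, none with more than 59 UMIs.

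The osteogenic genes were then set against *Cxcl12*, cell by cell, to see where they stood relative to the niche chemokine. *Cxcl12* took a median of 1.23% and 1.34% of the UMIs of a cell. With this share, *Ibsp* had a rho of 0.48 on plate 1 and 0.18 on plate 2, and *Adipoq*, another stromal gene, 0.55 and 0.41. For *Spp1* rho was 0.06 and 0.20, for *Sparc* 0.15 and 0.30, for *Mmp13* 0.02 and -0.11, and for *Runx2* -0.11 and -0.19. *Wif1* had -0.31 and -0.09, and on plate 1 none of its 13 UMIs was in the tertile of cells with most *Cxcl12*. The Poisson interval of that 0 reached 118 CPM, and 8 of the 13 were in 3 wells rich in *S100a8* and *S100a9*. Plate 2 went the other way: the tertile with most *Cxcl12* held 6 *Wif1* UMIs, at 190.5 CPM, against 125.1 CPM in the lowest tertile. For UMIs per cell, rho with the *Cxcl12* share was -0.40 and -0.14. Thinning to 673 UMIs kept 67 and 77 cells and left out the shallower ones. When cells were thinned to 673 UMIs, rho was 0.36 and 0.26 for *Ibsp*, 0.09 and 0.02 for *Spp1*, 0.03 and 0.17 for *Sparc*, 0.14 and -0.13 for *Mmp13*, -0.07 and -0.11 for *Runx2*, and -0.14 and 0.03 for *Wif1*, whose sign turned on plate 2.

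**Figure D3:**
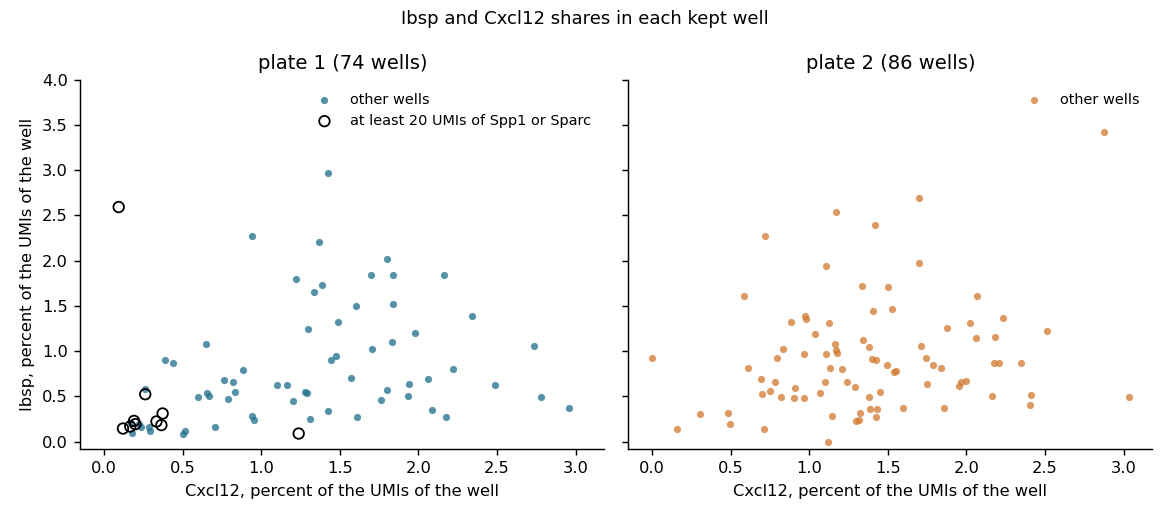
*Ibsp* against *Cxcl12*, each as a percent of the UMIs of the well, in every kept well of plates 1 and 2, with the wells of at least 20 *Spp1* or *Sparc* UMIs circled. All but 1 of the circled wells lie below 0.5% *Cxcl12*, and the circled well at 2.59% *Ibsp* is the one with 116 *Spp1* UMIs.

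Cells of each plate were ranked by *Cxcl12* share, and the lowest tertile (24 and 28 cells) was compared with the highest (24 and 28 cells). From the low to the middle to the high tertile, *Ibsp* was at 2665, 8565 and 10370 CPM on plate 1 and at 5562, 9200 and 10410 CPM on plate 2. The Poisson intervals of the low tertile, 2335 to 3029 and 5030 to 6135, lay below those of the middle and high tertiles on both plates. They cover counting error and not the spread between wells. The deepest well of each low tertile held 17146 of 88173 and 21187 of 71916 UMIs, and without it *Ibsp* was at 2844 CPM (2465 to 3264) and 7313 CPM (6588 to 8097), still below. *Spp1* was at 6589 CPM in the low and 3350 CPM in the high tertile of plate 1, and at 1293 and 2032 CPM on plate 2, where it was 1754 CPM in the low tertile without that well. *Sparc* was at 3743 and 3477 CPM on plate 1 and at 1571 and 3873 CPM on plate 2. The low tertile of plate 1 held 9 of the 10 high wells, and in it *Col1a1* was at 4298 CPM against 638 CPM in the high tertile. *S100a8* was at 46660 against 20610 CPM on plate 1 and at 23440 against 10190 CPM on plate 2. Median UMIs per cell were 1768 against 1180 on plate 1 and 1110 against 968 on plate 2.

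**Figure D4:**
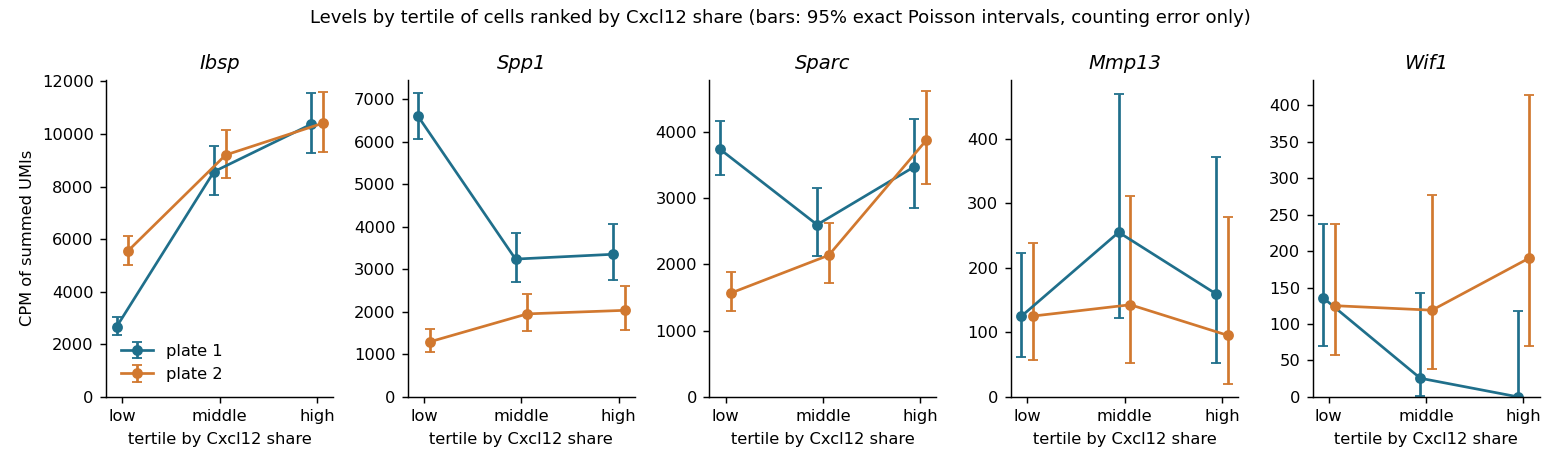
CPM of summed UMIs by tertile of *Cxcl12* share on plates 1 and 2, with 95% exact Poisson intervals. *Ibsp* is lowest in the low tertile of both plates, while *Spp1* is highest in the low tertile of plate 1, at 6589 CPM, and lowest in that of plate 2, at 1293 CPM.

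In an edgeR quasi-likelihood test of these 4 sums with the plate as a block, 9 of 941 genes passed an adjusted p of 0.05, or 0.956%, of which 1 was higher with more *Cxcl12* (0.106%), namely *Cxcl12*, on which cells were ranked, and 8 were lower (0.850%). At an unadjusted p under 0.05 there were 202. Of the 7 osteogenic genes, 3 had enough UMIs to be tested and 0 passed, while DESeq2 called 1. *Ibsp* had a log2 fold change of 1.36 ± 0.39 (SE; edgeR, adjusted p = 0.1226) and was higher with more *Cxcl12* on both plates. *Spp1* had -0.26 ± 0.55 (adjusted p = 0.8328) and *Sparc* 0.52 ± 0.53 (adjusted p = 0.634). *Ibsp* passed with DESeq2 (adjusted p = 0.04749), with the cells of each plate split at the median share (edgeR, adjusted p = 0.04746) and with no gene minimum (edgeR, adjusted p = 0.01829). There, 7.55%, 3.79% and 5.83% of genes were called higher. Without the 10 high wells, the fold changes in edgeR were 1.21 ± 0.36 for *Ibsp*, 0.53 ± 0.33 for *Spp1* and 1.10 ± 0.33 for *Sparc*, with adjusted p from 0.1887 to 0.4024. Those wells were chosen for high *Spp1* or *Sparc*, and 9 lay in the low tertile of plate 1. The upward shifts of *Spp1* and *Sparc* follow from that choice and are no independent result. Without the wells rich in *S100a8* and *S100a9*, *Ibsp* was at 1.26 ± 0.61 (edgeR, adjusted p = 0.2976).

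**Figure D5:**
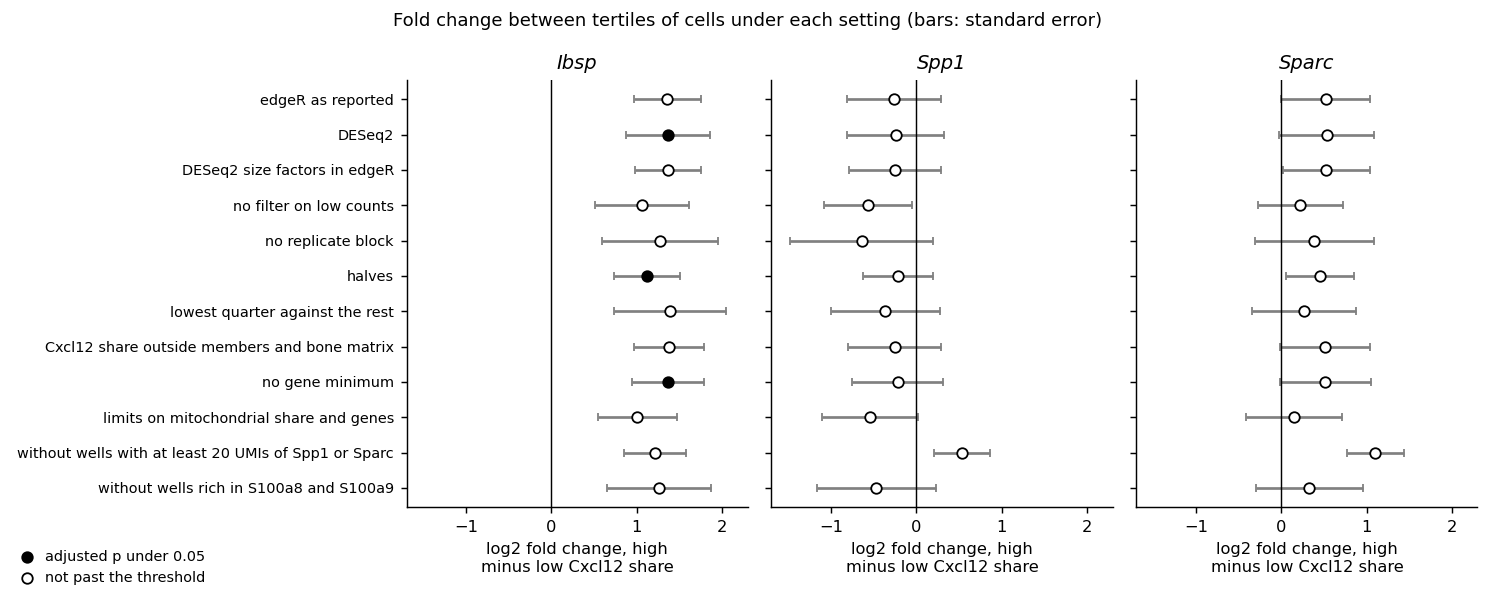
Log2 fold change of *Ibsp*, *Spp1* and *Sparc* between the high and low tertile of *Cxcl12* share (points; bars, standard error) under each setting, filled where the adjusted p was under 0.05. *Ibsp* lies above 0 under all 12 settings and passes in 3. *Spp1* changes sign without the 10 high wells, which were themselves chosen for high *Spp1* or *Sparc*.

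The marrow stromal genes lay on the same side as *Ibsp*: of 15 listed beside *Cxcl12*, 12 were tested and all 12 had a positive log2 fold change, with a median of 1.80 against -0.07 over all genes, but 0 passed. *Lepr* had 2.04 ± 0.44 (edgeR, adjusted p = 0.07614) and *Adipoq* 1.91 ± 0.54 (adjusted p = 0.1182). Cells were ranked on a gene of this list, so its direction is no independent result. Of 24 other bone matrix genes, 7 were tested and 0 passed, with 4 positive, 3 negative and a median of 0.22. *Bgn* (biglycan) had 1.61 ± 0.50 and *Serpinh1*, a collagen chaperone, 1.32 ± 0.48, while *Col1a1* had -1.98 ± 0.76. *Col1a1* passed in edgeR with no filter on low counts (adjusted p = 0.01933), with the cells split at the median share (adjusted p = 0.02578) and for the lowest 25% of cells against the rest (adjusted p = 0.04628). Without the 10 high wells of *Spp1* or *Sparc* it was at -0.32 ± 0.35 (edgeR, adjusted p = 0.627). Of the Wnt list 2 were tested, *Sfrp4* at 1.99 ± 0.69 and *Lrp5* at -3.89 ± 1.06. Of the proteases and inhibitors, *Timp2* alone was tested, at 0.96 ± 0.37, and of the osteoblast regulators 0 were. In edgeR with tertiles, adjusted p-values of these genes were 0.1063 or above. Among 5 blood cell genes tested, all negative, *S100a8* passed at -1.26 ± 0.21 (edgeR, adjusted p = 0.0496).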

How the data were processed

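Single cells of 2 *Lepr-TdT* plates were analysed. The authors sequenced Nextera XT libraries and deposited UMI counts per gene and cell, whole numbers without normalisation. The submitters' processing notes name mm10, UMI-tools, STAR, featureCounts, SAMtools and Seurat without versions. The paper's methods state Cell Ranger with an mm10 reference release for its single cell work, and whether that holds for these plates is not stated. Columns with the prefixes SJ001 and SJ002 were taken as plates 1 and 2 by their numbers. Of 50508 gene symbols, 94.4% matched GENCODE M21. No doublet caller was run.

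Cells with at least 350 genes were kept. CPM are UMIs of a gene over all UMIs of the summed cells. Intervals are exact, at 95%, and a count of 0 was read as up to 3 counts. At a median of 1130 to 1390 UMIs per cell, a gene of 1 UMI in a cell is not placed with precision. Cells of each plate were ranked by *Cxcl12* share, and the sums of the lowest and highest tertile, 4 in all, were tested with edgeR 4.0.16 (TMM, filterByExpr, quasi-likelihood test, Benjamini-Hochberg adjustment over all genes tested, threshold 0.05) in R 4.3.3, tried first on simulated counts. Both tertiles of a plate come from the same plate, so the plate was a block. With 2 plates, p-values measure only the spread between these sums, which may be technical. DESeq2 1.42.0 was an alternative, and it gave 212 of the 941 genes an adjusted p. For edgeR, the standard error is approximate: the absolute log2 fold change over the square root of F.

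All 7 genes are named. Lists are described by counts with up to 4 of their most abundant genes, and genes most like a member are the 3 with the highest mean correlation over the plates, for members in at least 10 cells on each plate, among genes with at least 30 UMIs and in 5 cells on each plate. Genes named for single wells, and *Lepr*, *Axin2*, *Lef1*, *Cbfb* and the other genes outside these rules, were picked with their values known. The members and lists were chosen with earlier results of these data known.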

Additional observations from a re-analysis of the deposited data

Results flagged for a closer look

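The 2 wells of plate 1 that were left out for having fewer than 350 genes, with 552 and 506 UMIs, held 8 UMIs of *Spp1* and 8 of *Ibsp* together, above the 3 counts that a count of 0 allows. The well of 506 UMIs held 7 of the *Spp1* and 5 of the *Ibsp* UMIs. These wells enter only the results with no gene minimum.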

How the results depend on the processing

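The number of genes past the threshold between tertiles depended on the setting. Against 9 in edgeR (1 higher, 8 lower), it was 28 with DESeq2 (16 higher, 12 lower), 0 with DESeq2 size factors in edgeR, 64 with no filter on low counts, 131 with cells split at the median share, 144 for the lowest 25% against the rest, 64 with the *Cxcl12* share taken outside the members and bone matrix, 105 with no gene minimum and 23 under limits on mitochondrial share and genes. It was 0 with no replicate block, where the plate as a pairing was dropped, 0 without the wells with at least 20 UMIs of *Spp1* or *Sparc* and 0 without the wells rich in *S100a8* and *S100a9*. These last alternatives, which leave out wells, were chosen after the data were seen, as were sums of CPM without their deepest or richest well. Where cells with and without a UMI of a gene were set side by side, only the cells with a UMI were trimmed. Of the members, 1 (*Ibsp*) passed with DESeq2 (log2 fold change 1.37), at the median split (1.12) and with no gene minimum (1.37), and 0 elsewhere. The fold change of *Spp1* turned from -0.26 to 0.53 without the wells with at least 20 UMIs of *Spp1* or *Sparc*. These wells were chosen for those genes and lay mostly in the low tertile of plate 1, so the turn follows from the choice. With 1 plate at a time, a value with no test, the fold change ran from -1.08 to 0.61 for *Spp1*, from 0.87 to 1.83 for *Ibsp* and from -0.22 to 1.25 for *Sparc*. The causes were not tested. Of 147 other values for levels, high wells and correlations, 121 stayed within 1 SD or 1.5 times and 26 moved. For levels and correlations, 1 plate alone always lies within 1 SD of the mean of 2 plates, so those values could not move. High wells of *Runx2*, *Sp7* and *Wif1* numbered 0 under every setting. The 121 are therefore no measure of robustness. The mean rho of *Mmp13* with the *Cxcl12* share crossed 0, from -0.048 to 0.0040 when cells were thinned and to 0.016 on plate 1 alone. The mean CPM of *Mmp13* ran from 106 to 268 over its alternatives, and that of *Spp1* from 2079 to 4373. Depth limits *Runx2*, *Sp7*, *Mmp13* and *Wif1*, with 12, 3, 44 and 33 UMIs in all.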
